A study of Homo sapiens with 10 samples.

Results

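HCT116, an established human colorectal carcinoma line, was studied here after knockdown of CDK9 by short hairpin RNA (shCDK9), in cells given CDK9 with lysine 56 changed to alanine (K56A) and in cells labelled EV. Both groups carry the knockdown and both are listed with no drug treatment. The labels do not expand EV, and the name is kept as given. These 4 libraries, 2 per group, of the 10 libraries in the series (5 groups) were chosen by their sample names in the deposited table that holds EV and K56A. The WT group of 2 libraries holds knockdown cells given wild-type CDK9. It is used only to ask where K56A cells differ from it and where both differ from EV. Neither the source of the knockdown line (1 clone or a pool), the promoter that drives the returned CDK9, nor whether replicates are separate cultures is given in the sources used here. P-values therefore measure only the spread between these libraries, which may be technical. RNA abundance was measured by mRNA sequencing and is given in FPKM (fragments per kilobase, a measure that corrects for transcript length and for the size of each library), summed over all transcripts of a gene. The table lists 17582 genes, of which 13782 reached an FPKM of 1 in at least 2 of the 4 libraries and were tested.

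CDK9 is the kinase subunit of P-TEFb, a complex with cyclin T that phosphorylates the pausing factors DSIF and NELF and the tail of RNA polymerase II, and so releases paused polymerase into elongation. Much of the P-TEFb in a cell is held inactive on the 7SK RNA by HEXIM proteins. Genes that are induced within minutes of a growth signal, such as FOS, are textbook cases of control at the pause. DOT1L methylates histone H3 at lysine 79 in transcribed genes, and the title of the series links CDK9 methylation by DOT1L to how cells repair broken DNA. The comparison of K56A with EV asks which transcripts differ once the mutant kinase is present in knockdown cells.

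The changed residue is shown first because it defines the mutant. In the reference transcript of the coding form (ENST00000373264, GENCODE, GRCh38), codon 56 of CDK9 is AAG, a lysine codon, at chromosome 9, 127786774 to 127786776, on the plus strand, in exon 2 of 7. The 63 bases around it run into the next exon, with codon 56 in capitals.
CDK9 codon 56: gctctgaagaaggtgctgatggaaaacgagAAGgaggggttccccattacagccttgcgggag
This is the reference sequence and not that of the introduced construct. The deposited values give abundance per transcript and do not show which codon the CDK9 RNA of a library carries.

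The promoters of 3 genes that fell together, FOS, FOSB and DUSP1, are shown because each holds the core of the cAMP response element (TGACG) and a TATA box (TATAAA), both in capitals. The sequences are from RefSeq (GRCh38.p14), run from 250 bases before the start site to 50 after it and are written 5′ to 3′ in the direction of the gene. FOS lies at chr14:75278578-75278877 (plus strand), FOSB at chr19:45467746-45468045 (plus strand) and DUSP1 at chr5:172771146-172771445 (minus strand).
FOS: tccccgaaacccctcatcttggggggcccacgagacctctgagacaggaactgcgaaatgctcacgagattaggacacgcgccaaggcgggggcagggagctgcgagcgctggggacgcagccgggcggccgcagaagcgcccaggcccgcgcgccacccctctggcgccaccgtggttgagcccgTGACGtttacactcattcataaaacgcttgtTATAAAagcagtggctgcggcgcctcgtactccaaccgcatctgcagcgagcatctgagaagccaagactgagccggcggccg
FOSB: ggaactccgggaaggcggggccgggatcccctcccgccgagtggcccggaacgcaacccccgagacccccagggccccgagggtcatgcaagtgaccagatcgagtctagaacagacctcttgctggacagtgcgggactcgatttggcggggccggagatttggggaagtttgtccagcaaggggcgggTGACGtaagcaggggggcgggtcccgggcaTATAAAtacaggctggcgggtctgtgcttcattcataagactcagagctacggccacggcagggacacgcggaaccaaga
DUSP1: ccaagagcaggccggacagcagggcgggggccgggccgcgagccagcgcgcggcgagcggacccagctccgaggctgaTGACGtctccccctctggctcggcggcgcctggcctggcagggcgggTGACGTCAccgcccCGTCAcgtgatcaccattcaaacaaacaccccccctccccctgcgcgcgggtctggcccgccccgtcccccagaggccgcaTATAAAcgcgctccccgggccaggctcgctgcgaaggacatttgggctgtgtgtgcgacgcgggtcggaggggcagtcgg
The core begins 64 bases before the start in FOS and 60 before it in FOSB. DUSP1 holds the core 4 times, and 2 of these are the overlapping strands of 1 full element (TGACGTCA) that begins 125 bases before the start. The TATA box begins 33 bases before the start in FOS and 30 before it in FOSB and DUSP1. Searched on both strands, the core is present in 24.6% of the 35116 promoters in the RefSeq table, the TATA box in 11.5%, both in 1.96% and the full element in 1.85%. The other motifs searched were the GC box (GGGCGG, in 44.95% of promoters), the CCAAT box (CCAAT, 34.6%), the AP-1 site (TGANTCA, 7.71%), the E box (CACGTG, 7.26%), the RBPJ site (GTGGGAA, 6.25%) and the CArG box of serum response factor (1.29%). Of these, the GC box was found in all 3 stretches shown and the E box in that of DUSP1, where it overlaps a core. The others were found in none of the 3 stretches, and sequence beyond them was not searched. A match of letters is a description and was not tested as a site of binding. Promoters of the other genes that fell, and of early genes that did not pass, were not examined singly. Whether the pair of motifs sets the 3 genes apart from them was not tested.

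The tables hold no counts, so depth is unknown, but the commonest ratio of low values put EV replicate 2 and the K56A libraries at 1.11, 1.21 and 1.13 times the depth of EV replicate 1. Across the genes tested, log2 values of replicates had r = 0.991 in EV and 0.994 in K56A, where genes are not independent replicates. The summed FPKM of 7 listed markers of colon epithelium (of 8, with VIL1 absent from the table) was 1822 to 1881 in every library. Defining leukocyte genes (PTPRC, CD3E) and endothelial CDH5 were not listed. Of 6 fibroblast markers only COL1A1 stood above 1 FPKM, at 29.9 and 27.4 in EV and 36.2 and 34.5 in K56A. Genes of the mitochondrial genome took 27.9% and 27.5% of all FPKM in EV and 25.3% and 25.4% in K56A. FPKM are shares of a library, and the median log2 fold change of all genes was 0.03 (0.01 with mitochondrial genes left out).

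CDK9 was examined first, as the gene that was knocked down and returned. CDK9 (ENSG00000136807, chromosome 9, 127786034 to 127790792) stood at 16.3 and 19.4 FPKM in EV and at 2609 and 2499 in K56A. Both K56A libraries therefore lay far above both EV libraries, a 143-fold difference of means (17.9 ± 2.19 against 2554 ± 78.3, SD, n = 2 each). The log2 fold change on the log2(FPKM + 0.5) scale was 7.12 ± 0.08 (SE, limma adjusted p = 3.1e-08). WT cells, summed over the transcripts listed for both lines, held 3060 and 2976 FPKM. K56A minus WT was -0.24 ± 0.07 on the log2 scale (limma adjusted p = 0.22), so the returned genes did not differ past the threshold in RNA level. Both K56A libraries still lay below both WT libraries, and equal levels are not shown.

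The form of the CDK9 RNA differed between the groups. The coding transcript CDK9-201 rose from 11.6 and 10.95 FPKM to 752 and 750, and made up 70.7% and 56.3% of the gene's FPKM in EV but 28.8% and 30.01% in K56A. The rest lay in 3 transcripts annotated as non-coding processed transcripts, which went from 4.79 and 8.49 FPKM to 1857 and 1749. A sum over all transcripts thus gives a larger fold than the coding form, whose log2 fold change in the authors' deposited table was 6.02. How reads of the introduced gene were shared among the 4 annotated forms was not tested.

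DOT1L, the H3 lysine 79 methyltransferase, was also higher in K56A cells. DOT1L (ENSG00000104885, chromosome 19, 2163933 to 2232578) stood at 324 and 343 FPKM in EV and at 733 and 702 in K56A. The groups did not overlap, and the means differed 2.15-fold (333 ± 13.1 against 717 ± 21.4, SD, n = 2 each; log2 fold change 1.11 ± 0.04, limma adjusted p = 0.00014). Its long coding transcript DOT1L-201 carried most of this, at 254 and 258 FPKM in EV and 586 and 544 in K56A. In the separately normalized table of the inhibitor experiment, DMSO-treated HCT116 cells held 12.6 and 12.5 FPKM of DOT1L, so the level of the gene was high in every knockdown library. Every difference between K56A and EV is at the same time a difference between cells that differ in DOT1L RNA, and the 2 cannot be told apart in this design. AMH, which starts 16731 bases after the end of DOT1L on the same strand, held 70.6 and 66.0 FPKM in EV and 95.4 and 89.4 in K56A (log2 fold change 0.43 ± 0.06, adjusted p = 0.057). It was chosen after its values were seen, as were the neighbouring AP3D1 (0.20 ± 0.05, adjusted p = 0.22), SF3A2 (0.15 ± 0.05, adjusted p = 0.27) and PLEKHJ1 (0.06 ± 0.05, adjusted p = 0.68).

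**Figure D1:**
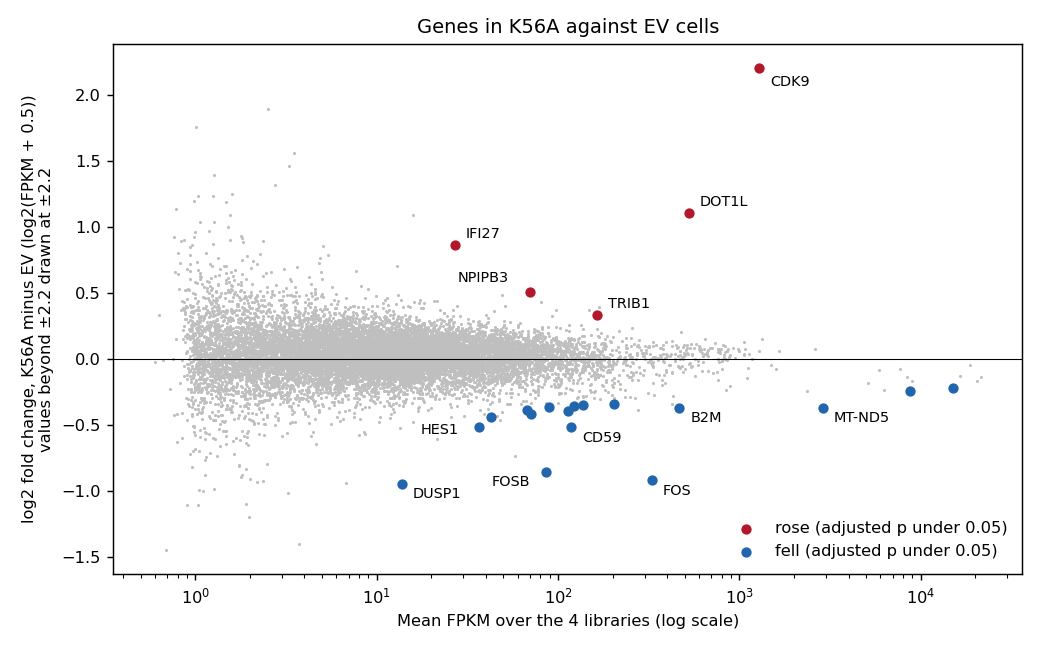
Each point is 1 of the 13782 genes tested, with its mean FPKM over the 4 libraries on the horizontal axis (log scale). The vertical axis gives the log2 fold change, K56A minus EV. Values beyond the drawn range are placed at its limit, so CDK9 (7.12) is drawn below its value. Coloured points passed at an adjusted p of 0.05 (5 higher, 17 lower). CDK9 and DOT1L (1.11) stand above the cloud, and DUSP1, FOS and FOSB, at -0.94 to -0.85, below it.

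In all, 22 genes of 13782 passed at an adjusted p of 0.05 (limma), which is 0.16%. Of these, 5 rose (0.0363%) and 17 fell (0.123%), and without CDK9 and DOT1L the risers were IFI27, NPIPB3 and TRIB1. In a fit that adds the WT libraries, 20 of the 21 called genes present had the same sign in WT minus EV. Of the 14 nuclear genes that fell, 7 also fell in WT at an adjusted p of 0.05 (limma). Both comparisons share the EV libraries, which alone favours the same sign. The matching shares over all genes were not counted, so no common response is read from these counts. At an unadjusted p under 0.05 there were 1858 genes (13.5%), 1130 of them higher in K56A (8.2%) and 728 lower (5.28%). The groups did not overlap for 6213 genes (45.1%), so a gap between 2 and 2 libraries was common. The falls were of 13.9% to 49.2%, and 16 of the 17 lay in the top quintile of genes by mean FPKM, above 32.5. The number that passed varied with the fit. It was 1 without the intensity trend of limma, 5 with coding transcripts only or without the filter on low values, and 40 to 85 when 1 library was left out.

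FOS, FOSB and DUSP1, genes of the early response to growth signals, fell furthest, by 44.8% to 49.2%. FOS, the prototype immediate early gene and a subunit of the transcription factor AP-1 (ENSG00000170345, chromosome 14, 75278826 to 75282230), held 432 and 434 FPKM in EV and 238 and 220 in K56A. FOSB, its close relative (ENSG00000125740, chromosome 19, 45467995 to 45475179), held 111 and 110 FPKM in EV and 62.0 and 60.2 in K56A. DUSP1, a phosphatase that switches off MAP kinases (ENSG00000120129, chromosome 5, 172768096 to 172771195), held 18.1 and 18.6 FPKM in EV and 9.65 and 8.96 in K56A. In each of the 3 genes the groups lay far apart and replicates lay close together. In bulk RNA, fewer cells with a transcript and less of it per cell cannot be told apart. The log2 fold changes were -0.92 ± 0.04 for FOS (SE, limma adjusted p = 0.00054), -0.85 ± 0.04 for FOSB (adjusted p = 0.00070) and -0.94 ± 0.08 for DUSP1 (adjusted p = 0.011). All 3 passed in 14 of 15 alternative fits and missed only without the intensity trend (adjusted p = 0.27). Both classes of transcript were lower in FOSB. There the coding transcripts summed to 79.6 and 78.9 FPKM in EV and 45.6 and 45.0 in K56A, and those with a retained intron to 31.9 and 31.0 in EV and 16.4 and 15.2 in K56A.

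Most other early genes did not pass. Of 14 AP-1 subunits tested, FOS and FOSB fell and none rose, and the median log2 fold change was -0.02 (-0.09 to 0.05 over the alternatives, so its sign is not fixed). JUN, the main partner of FOS, held 57.4 and 59.8 FPKM in EV and 47.9 and 44.3 in K56A (-0.34 ± 0.06, adjusted p = 0.0999). FOSL1, a FOS relative that is high in colon cancer lines, gave 0.19 ± 0.05 (adjusted p = 0.25), JUNB -0.04 ± 0.05 (adjusted p = 0.80) and JUND -0.02 ± 0.13 (adjusted p = 0.97). ATF3, BATF3, MAFF, MAFG, MAFK, FOSL2, JDP2 and ATF2 lay between -0.09 and 0.26 with adjusted p of 0.51 or more.

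Among 23 other immediate early genes tested, TRIB1 rose and none fell, with a median log2 fold change of -0.01 (-0.03 to 0.03 over the alternatives). TRIB1, a pseudokinase that steers proteins to the COP1 ubiquitin ligase, held 147 and 143 FPKM in EV and 185 and 180 in K56A (0.33 ± 0.04, limma adjusted p = 0.049; 0.070 without K56A replicate 1). WT cells held 178 and 178 FPKM of TRIB1, a rise from EV of 0.29 ± 0.04 (limma adjusted p = 0.027). K56A minus WT was 0.04 ± 0.04 for TRIB1 (adjusted p = 0.70). The nuclear receptor NR4A1 held 102 and 103 FPKM in EV and 82.1 and 76.1 in K56A (-0.37 ± 0.05, adjusted p = 0.062), and its relative NR4A2 gave -0.37 ± 0.06 (adjusted p = 0.11). The zinc finger genes EGR1 and EGR2 gave -0.14 ± 0.04 (adjusted p = 0.22) and -0.36 ± 0.08 (adjusted p = 0.16), and EGR3 -0.01 ± 0.11 (adjusted p = 0.98). IER5L gave 0.35 ± 0.09 (adjusted p = 0.20), IER3 0.13 ± 0.04 (adjusted p = 0.245), ZFP36 0.15 ± 0.06 (adjusted p = 0.34) and ZFP36L1 0.17 ± 0.06 (adjusted p = 0.32). SRF, MCL1, KLF2, KLF4, KLF5, KLF6, KLF10, IER2, IER5, BTG1, BTG2, PPP1R15A and ZFP36L2 lay between -0.15 and 0.12 with adjusted p of 0.406 or more. The groups did not overlap for 9 of these genes upward and 7 downward, where 28.6% and 16.5% of all genes tested were apart in those directions.

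DUSP1 was the sole member of 21 ERK feedback inhibitors tested to pass, and the list's median was 0.05. DUSP5, a nuclear phosphatase of ERK, held 38.8 and 38.5 FPKM in EV and 49.7 and 50.1 in K56A (0.37 ± 0.05, adjusted p = 0.062), on the other side of 0 from DUSP1. WT cells held 55.6 and 55.0 FPKM of DUSP5. The EGF receptor inhibitor ERRFI1 gave 0.17 ± 0.04 (adjusted p = 0.16) and DUSP8 0.30 ± 0.13 (adjusted p = 0.36). Of 8 EGF receptor family members and ligands tested none passed (2 lower at an unadjusted p under 0.05, as were 5.28% of all genes). The ligands EREG and AREG gave -0.24 ± 0.06 and -0.13 ± 0.04 (adjusted p = 0.20 and 0.25). Of 19 YAP-TEAD targets none passed and 1 was lower at an unadjusted p under 0.05, beside the same 5.28%. The member with the smallest p was CCN1, a secreted matrix protein, at 175 and 175 FPKM in EV and 147 and 138 in K56A (-0.30 ± 0.04, adjusted p = 0.077). Its coding transcripts alone gave 0.03, against -0.30 for the sum, and transcripts with a retained intron carried most of its FPKM.

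**Figure D2:**
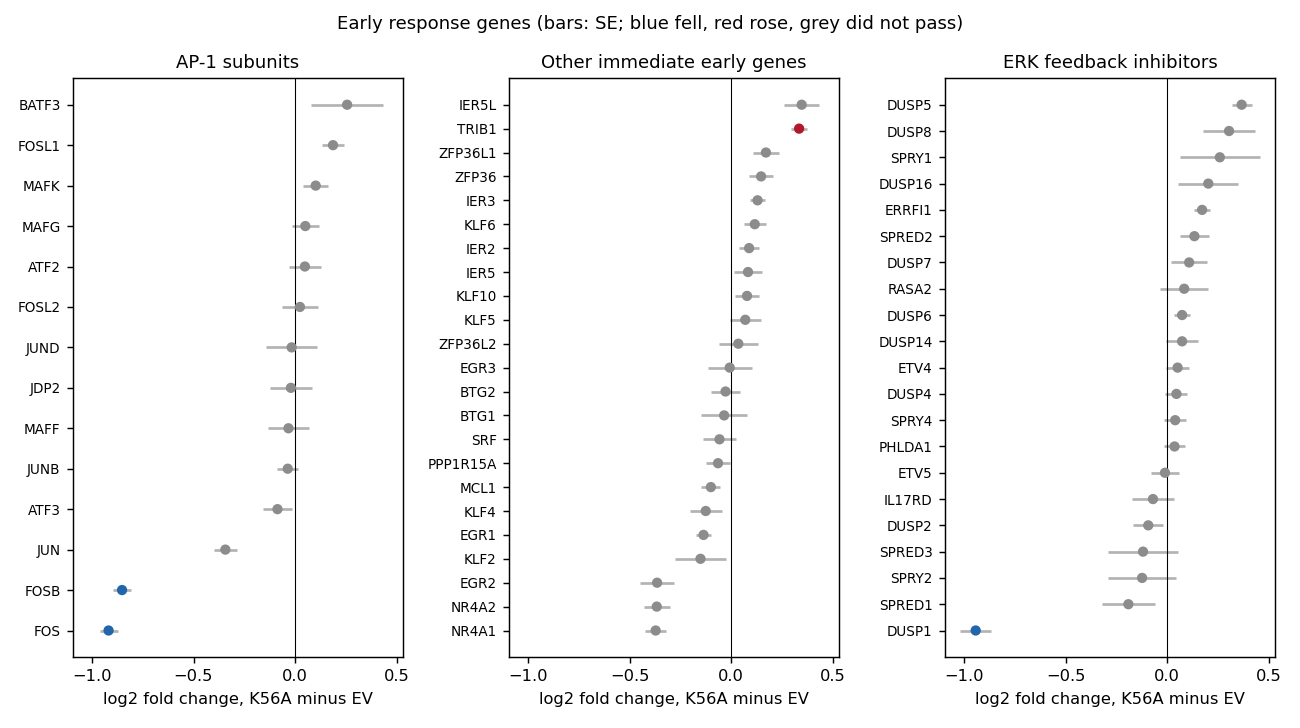
Log2 fold change, K56A minus EV, with its SE (bars) for each tested member of the AP-1 subunits (14), other immediate early genes (23) and ERK feedback inhibitors (21). FOS, FOSB and DUSP1 lie between -0.94 and -0.85, apart from the other members; TRIB1 at 0.33 is the sole member that rose.

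HES1, a repressor induced by Notch signalling, fell, from 41.6 and 44.8 FPKM in the EV libraries to 30.2 and 29.9 in the K56A libraries (-0.51 ± 0.06, limma adjusted p = 0.046). It was the sole member of 19 Notch and BMP feedback genes to pass. ID1, a target of BMP signals, held 143 and 147 FPKM in EV and 202 and 181 in K56A (0.39 ± 0.06, adjusted p = 0.075). HES4 gave 0.30 ± 0.11 (adjusted p = 0.31) and the ligand BMP4 0.12 ± 0.04 (adjusted p = 0.32), so members lay on both sides of 0.

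The difference between the responses to the mutant and to wild-type CDK9 was tested in a fit of the 6 knockdown libraries, over 12077 genes and the transcripts listed for both lines. In that fit 7 genes differed between K56A and WT at an adjusted p of 0.05 (0.058%), 2 of them higher in K56A (0.0166%) and 5 lower (0.0414%). FOS held 363 and 360 FPKM in WT and 235 and 221 in K56A on this footing, so WT lay between EV and K56A (K56A minus WT -0.67 ± 0.04, limma adjusted p = 0.0011). FOSB held 78.2 and 81.0 in WT and 61.7 and 60.2 in K56A (-0.38 ± 0.04, adjusted p = 0.034). CCN1 held 183 and 184 in WT and 147 and 138 in K56A (-0.36 ± 0.04, adjusted p = 0.034). For these 3 genes, summed over transcripts, both K56A libraries lay below both WT libraries. The coding form CCN1-201 alone overlapped, at 10.2 and 10.6 FPKM in WT and 15.7 and 8.62 in K56A. DOT1L held 578 and 568 in WT and 733 and 703 in K56A (0.32 ± 0.04, adjusted p = 0.040). The interferon-induced gene IFI6 held 110 and 117 in WT and 175 and 161 in K56A (0.56 ± 0.06, adjusted p = 0.033). The mitochondrially encoded MT-ND5 and MT-ATP6 were lower than in WT by 0.25 ± 0.03 and 0.23 ± 0.02 on the log2 scale (adjusted p = 0.029 for both). DUSP1, at 12.02 and 13.5 FPKM in WT, gave -0.43 ± 0.08 (adjusted p = 0.12), and HES1, at 38.9 and 39.3, gave -0.37 ± 0.05 (adjusted p = 0.073). FOS, FOSB and DUSP1 were also lower in WT than in EV past the threshold. WT minus EV was -0.26 ± 0.04 for FOS (limma adjusted p = 0.036), -0.47 ± 0.04 for FOSB (adjusted p = 0.011) and -0.51 ± 0.08 for DUSP1 (adjusted p = 0.047). Without any 1 of the 4 K56A and WT libraries, FOS alone of the 7 passed (adjusted p at most 0.026), and the other 6 had adjusted p of 0.13 to 0.38 with log2 differences of the same sign.

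**Figure D3:**
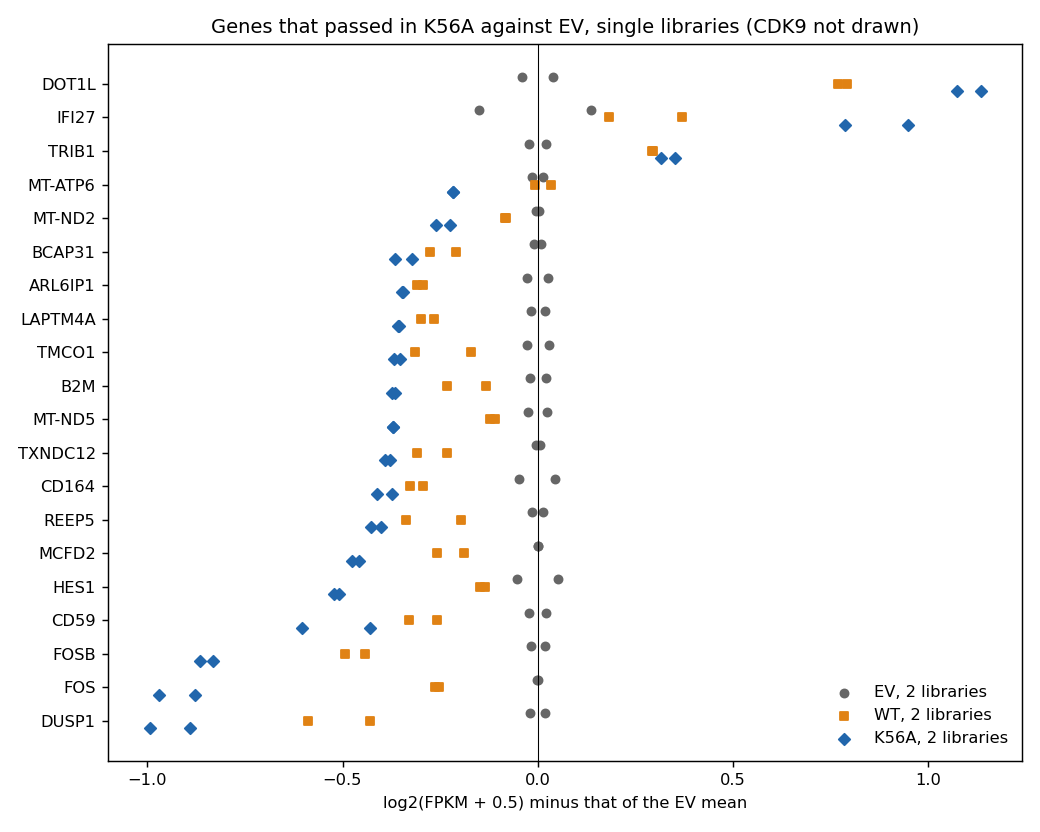
Each point is a library of EV, WT or K56A, drawn as its difference from the gene's EV mean on the log2 scale used for testing. Shown are called genes other than CDK9, with FPKM summed over transcripts listed for both lines. NPIPB3, which has no value for WT on this footing, is not drawn. FOS in WT, with 363 and 360 FPKM, lies between the 2 EV libraries (near 432 FPKM) and the K56A libraries (235 and 221 FPKM).

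IFI27, a small mitochondrial protein gene strongly induced by type I interferon, was the riser with the largest change after CDK9 and DOT1L. It held 20.9 and 17.2 FPKM in EV and 33.1 and 36.7 in K56A (0.86 ± 0.10, limma adjusted p = 0.046), and 21.2 and 24.3 in WT. Both K56A libraries lay above the 4 others, although K56A minus WT did not pass (0.59 ± 0.11, adjusted p = 0.12). Interferon-stimulated response elements were looked for in the promoters of IFI27 and IFI6 after their values were seen, as GAAA, any 2 bases and GAAA again, on both strands. The matches are in capitals below, in RefSeq sequence (GRCh38.p14) of chr14:94110486-94110785 (plus strand) for IFI27 and chr1:27672143-27672442 (minus strand) for IFI6.
IFI27: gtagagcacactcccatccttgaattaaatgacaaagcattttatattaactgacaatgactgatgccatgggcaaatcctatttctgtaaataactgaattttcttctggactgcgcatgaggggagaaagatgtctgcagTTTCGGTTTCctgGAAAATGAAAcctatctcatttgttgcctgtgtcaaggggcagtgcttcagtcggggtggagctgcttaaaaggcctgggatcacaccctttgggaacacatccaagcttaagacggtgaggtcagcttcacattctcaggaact
IFI6: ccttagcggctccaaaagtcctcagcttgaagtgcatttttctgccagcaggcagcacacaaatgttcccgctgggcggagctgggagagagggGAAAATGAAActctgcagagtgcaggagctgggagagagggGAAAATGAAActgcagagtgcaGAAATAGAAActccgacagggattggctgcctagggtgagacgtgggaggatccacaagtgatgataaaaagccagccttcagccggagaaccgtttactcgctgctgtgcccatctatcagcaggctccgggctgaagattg
IFI27 holds 2 matches on opposite strands and IFI6 holds 3, and 3.57% of the 35116 promoters hold at least 1. RefSeq lists 2 promoters for IFI27, and only the first is shown. Promoters of other interferon-stimulated genes were not examined singly. These matches are descriptions and were not tested as sites of binding.

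Of 31 interferon-stimulated genes tested, IFI27 rose and none fell. The list had 26 members above 0 (59.4% of all genes tested were), and a median log2 fold change of 0.19, against 0.03 over all genes. The median stayed between 0.16 and 0.22 in the alternatives. IFI6 held 124 and 135 FPKM in EV and 175 and 161 in K56A (0.37 ± 0.06, adjusted p = 0.091), and ISG15, a ubiquitin-like modifier, held 82.3 and 87.8 in EV and 116 and 105 in K56A (0.37 ± 0.06, adjusted p = 0.096). IFIT2 gave 0.60 ± 0.12 from low levels, 3.99 and 3.68 FPKM in EV and 5.57 and 6.63 in K56A (adjusted p = 0.14). Of 14 NF-kB feedback targets none passed (4 higher at an unadjusted p under 0.05, as were 8.2% of all genes), 12 lay above 0 (59.4% of all genes did) and the median was 0.13; RELB, CXCL8, BIRC3 and NFKBIA gave 0.49 ± 0.11, 0.54 ± 0.17, 0.38 ± 0.13 and 0.19 ± 0.07 (adjusted p = 0.16 to 0.34).

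B2M, the invariant light chain of MHC class I, fell, from 520 and 535 FPKM in the EV libraries to 407 and 409 in the K56A libraries (-0.37 ± 0.03, limma adjusted p = 0.021), with WT at 449 and 481 between the groups. It was the sole member of 16 genes of MHC class I and antigen processing to pass, and the list's median was 0.02. HLA-C, a heavy chain gene, held 297 and 307 in EV and 316 and 309 in K56A (0.05 ± 0.04, adjusted p = 0.63). The peptide transporter subunit TAP2 gave 0.24 ± 0.05 (adjusted p = 0.16), PSMB9 of the immunoproteasome 0.34 ± 0.14 (adjusted p = 0.37) and the loading factor TAPBP -0.10 ± 0.05 (adjusted p = 0.42).

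Genes of the mitochondrial genome, which encode 13 subunits of the respiratory chain and ATP synthase, lay below EV throughout. All 13 had a log2 fold change below 0 with groups apart, against 40.6% of all genes tested below 0 and 16.5% apart in that direction, and 3 fell by the test. The median was -0.17, and -0.20 to -0.16 in the alternatives that keep these genes. MT-ND5, a proton-pumping subunit of complex I, held 3302 and 3192 FPKM in EV and 2513 and 2511 in K56A (-0.37 ± 0.03, limma adjusted p = 0.012). MT-ND2, of the same complex, held 9448 and 9391 in EV and 8060 and 7868 in K56A (-0.24 ± 0.03, adjusted p = 0.046). MT-ATP6, of ATP synthase, held 16396 and 16075 in EV and 13970 and 13974 in K56A (-0.22 ± 0.03, adjusted p = 0.049). MT-ND2 and MT-ATP6 passed in the full set but not when K56A replicate 1 or 2 was left out (adjusted p = 0.16 to 0.31). MT-ND6, the sole subunit encoded on the other strand, gave the lowest value of the list from a wider spread, at 334 and 296 FPKM in EV and 236 and 244 in K56A (-0.39 ± 0.06, adjusted p = 0.086). The cytochrome oxidase subunit MT-CO1 lay nearest to 0 (-0.05 ± 0.03, adjusted p = 0.495), with MT-CO2 at -0.14 ± 0.04 and MT-CO3 at -0.16 ± 0.03. Nuclear copies of these genes exist, so the assignment of reads to single members is uncertain.

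**Figure D4:**
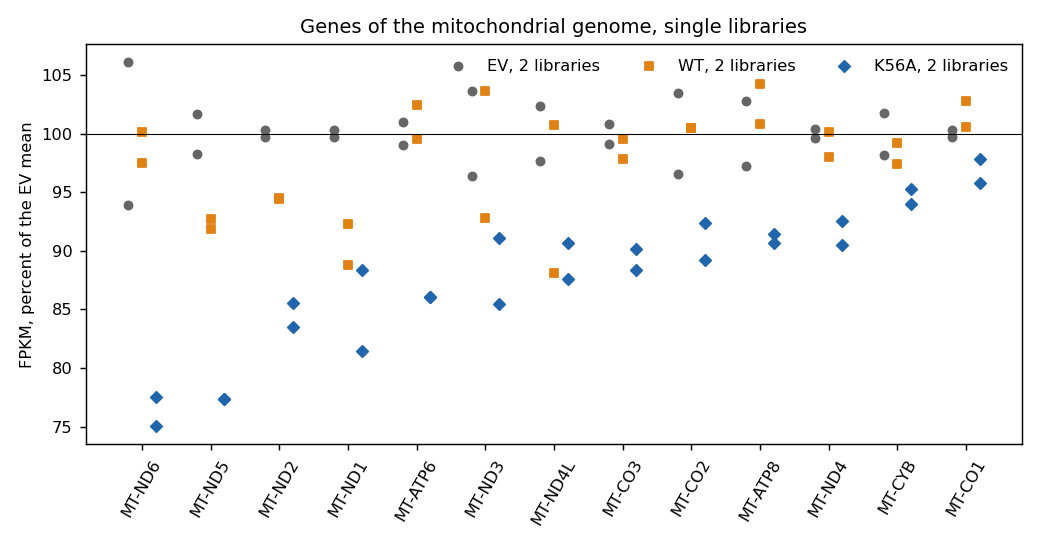
FPKM of the 13 mitochondrially encoded genes in each library, divided by the gene's mean in EV, for EV, WT and K56A (2 points each; the axis does not start at 0). Both K56A points lie below both EV points for every gene, furthest for MT-ND6 and MT-ND5 and least for MT-CO1.

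Among nuclear genes for the same respiratory complexes none of 76 tested passed. At an unadjusted p under 0.05, 8 were higher and 9 lower, beside 8.2% and 5.28% of all genes. Below 0 lay 44 (40.6% of all genes did) and above it 32, and the median was -0.03. The complex I genes NDUFC2 and NDUFA9 gave -0.34 ± 0.06 and -0.32 ± 0.06 (adjusted p = 0.10 and 0.11), while NDUFS6 of complex I and UQCR11 of complex III gave 0.26 ± 0.05 each (adjusted p = 0.14 and 0.13). Of 79 cytosolic ribosomal protein genes none passed, 72 lay above 0 (59.4% of all genes did) and 12 were higher at an unadjusted p under 0.05 (8.2% of all genes). Their median was 0.06 (0.03 to 0.09 over the alternatives) against 0.03 for all genes, and the highest was 0.15. The share of FPKM in mitochondrial genes was lower in K56A beside both lists, and its part in these values was not tested.

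Other genes that fell are given singly. REEP5, which shapes tubules of the endoplasmic reticulum (ER), held 82.3 and 80.7 FPKM in EV and 61.6 and 60.5 in K56A (-0.41 ± 0.05, limma adjusted p = 0.046). MCFD2, a cargo receptor subunit for clotting factors on the way from the ER, held 49.5 and 49.5 in EV and 36.1 and 36.8 in K56A (-0.44 ± 0.05, adjusted p = 0.046). TXNDC12, a thioredoxin-like protein of the ER lumen, held 77.0 and 76.5 in EV and 58.4 and 58.9 in K56A (-0.38 ± 0.04, adjusted p = 0.046). In these 3 genes the levels in K56A were 23.6% to 26.4% lower, and replicates of a group differed by less than 2 FPKM.

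BCAP31, an ER membrane chaperone, fell by 0.34 ± 0.04 on the log2 scale from 228 and 226 FPKM, and ARL6IP1, another shaper of ER membranes, by 0.35 ± 0.04 from 157 and 152 (adjusted p = 0.046 for both). TMCO1, an ER membrane protein involved in calcium release, fell by 0.36 ± 0.04 from 98.6 and 102.6 FPKM (adjusted p = 0.049; 0.056 without K56A replicate 2). LAPTM4A, a lysosomal membrane protein, fell by 0.36 ± 0.04 from 139 and 135 FPKM (adjusted p = 0.046). At the cell surface, CD59, which blocks the complement attack complex, held 141 and 137 FPKM in EV and 103 and 91.7 in K56A (-0.52 ± 0.06, adjusted p = 0.046). The sialomucin CD164 held 133 and 125 in EV and 99.7 and 97.0 in K56A (-0.39 ± 0.05, adjusted p = 0.049). This grouping by function was made after the calls were seen. K56A minus WT passed for none of these 9 genes (adjusted p = 0.14 to 0.68); ARL6IP1, for example, held 126 and 125 FPKM in WT and 121 and 122 in K56A. NPIPB3, the last riser, belongs to a family of near-identical copies on chromosome 16, so its values, 58.8 and 57.1 FPKM in EV and 77.8 and 87.1 in K56A (0.50 ± 0.06, adjusted p = 0.049), are uncertain.

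Lists for the ER and for metabolism held no member that passed in limma. Of 29 ER chaperones and unfolded protein response genes, 6 were lower at an unadjusted p under 0.05, 18 lay below 0 and the median was -0.03. Over all genes tested, 40.6% lay below 0, and 5.28% were lower and 8.2% higher at an unadjusted p under 0.05, with a median of 0.03. The members with the smallest p were MANF (-0.29 ± 0.04, adjusted p = 0.062), SPCS1 of the signal peptidase (-0.35 ± 0.05, adjusted p = 0.074), and SSR1 and SSR2 of the translocon (-0.23 ± 0.04 and -0.16 ± 0.04, adjusted p = 0.13 and 0.18). For cholesterol and fatty acid synthesis none passed and 25 of 33 lay below 0, beside those 40.6% of all genes (8 lower and 1 higher at an unadjusted p under 0.05) with a median of -0.10 (-0.13 to -0.06 over the alternatives). The desaturase SCD and the sterol sensor INSIG1 gave -0.20 ± 0.04 and -0.36 ± 0.07, whereas the fatty acid synthase FASN gave 0.20 ± 0.04 (adjusted p = 0.135 to 0.146). For hypoxia and glycolysis none passed and 25 of 32 lay below 0 (11 lower and 1 higher at an unadjusted p under 0.05) with a median of -0.09 (-0.12 to -0.07). ENO1, PGK1 and LDHA, enzymes of glycolysis, gave -0.20 ± 0.04, -0.19 ± 0.04 and -0.20 ± 0.05, and the ER oxidase ERO1A -0.26 ± 0.06 (adjusted p = 0.12 to 0.20). Of 26 epithelial junction genes none passed, and 5 were lower and none higher at an unadjusted p under 0.05. In this list 14 members lay above 0 and 12 below it, with a median of 0.02. Its members with the smallest p, the tight junction genes CLDN7, F11R, CLDN3 and CLDN4, gave -0.28 ± 0.04, -0.34 ± 0.07, -0.28 ± 0.09 and -0.18 ± 0.05 (adjusted p = 0.082 to 0.26).

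**Figure D5:**
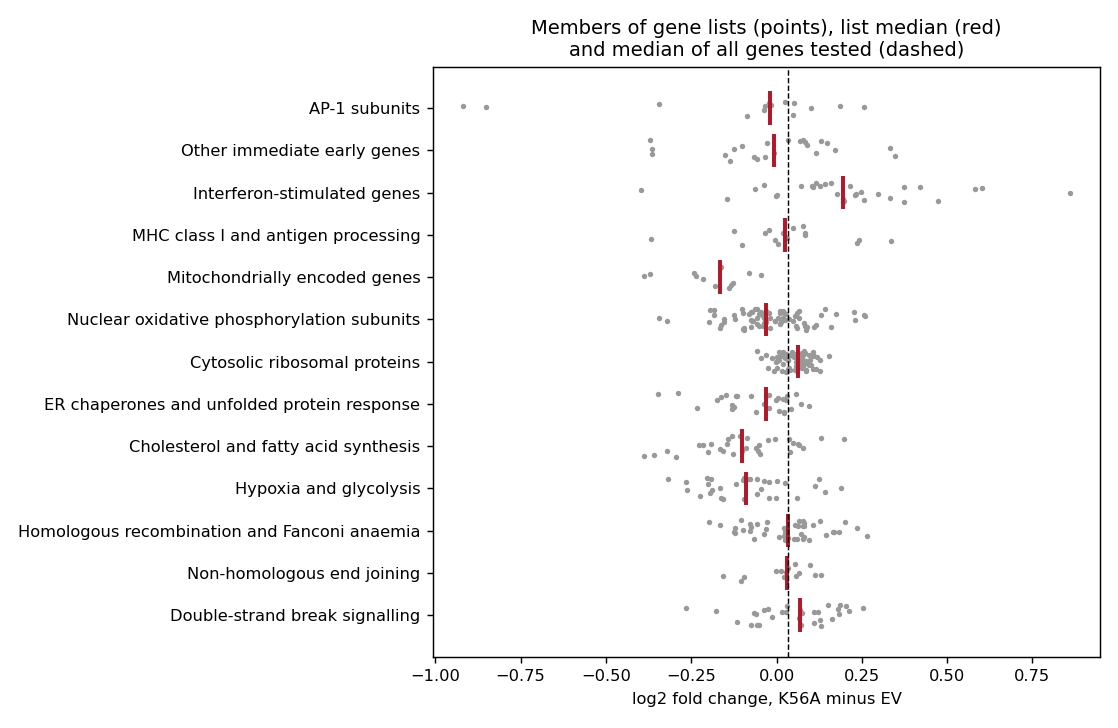
Log2 fold change, K56A minus EV, of each tested member (points) of 13 gene lists, with the list median (red line) and the median of all genes tested (dashed, 0.03). Medians lie at -0.17 for mitochondrially encoded genes and 0.19 for interferon-stimulated genes, and at 0.03 to 0.07 for the 3 DNA repair lists.

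Of 15 genes for P-TEFb and its 7SK regulators, CDK9 alone rose, none fell, and the median was 0.03 (-0.002 to 0.04 over the alternatives). The cyclin partners CCNT1 and CCNT2 held 19.4 and 16.7 FPKM on average in EV and 17.3 and 18.1 in K56A (-0.16 ± 0.10 and 0.11 ± 0.09, adjusted p = 0.51 and 0.67). HEXIM1, the inhibitor that is itself known to respond to P-TEFb inhibition, gave 0.16 ± 0.06 (adjusted p = 0.33), and HEXIM2 0.08 ± 0.11 (adjusted p = 0.79). The 7SK proteins LARP7 and MEPCE gave 0.02 ± 0.06 and 0.00 ± 0.07 (adjusted p = 0.92 and 1.00). AFF4, the scaffold of the super elongation complex, gave -0.01 ± 0.08 (adjusted p = 0.96). JMJD6 and ZMYND8 gave 0.18 ± 0.06 and 0.27 ± 0.13 (adjusted p = 0.28 and 0.43), and DDX21, SRSF2, PPM1A and PPM1G lay between -0.03 and 0.03 (adjusted p of 0.79 or more). A difference that missed the threshold does not show that levels were the same; with an SE of 0.06 to 0.13 for most of these genes, small shifts could not be seen.

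Pausing factors and the super elongation complex (24 tested) and other transcriptional CDKs and cyclins (15 tested) held no gene that passed, with medians of 0.04 and 0.01. At an unadjusted p under 0.05 they held 0 and 2 genes, beside 13.5% of all genes. The members with the smallest p were ELL, ELL3 and SUPT5H (0.15 ± 0.09, 0.18 ± 0.09 and 0.06 ± 0.05) and SUPT4H1 (-0.14 ± 0.07, adjusted p of 0.45 or more for all 4). In the second list CDK10 gave 0.16 ± 0.04 (adjusted p = 0.22). Among 7 DOT1L partners tested DOT1L alone passed, and the AF9 and AF10 genes MLLT3 and MLLT10 gave 0.11 ± 0.17 and 0.02 ± 0.09 (adjusted p = 0.82 and 0.95).

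Genes of double-strand break repair, the subject of the series' title, did not pass. None of 45 genes of homologous recombination and the Fanconi pathway, 14 of non-homologous end joining or 31 of break signalling rose or fell. At an unadjusted p under 0.05, 9 of these 90 genes were higher and 4 lower, beside 8.2% and 5.28% of all genes tested. The medians were 0.03, 0.03 and 0.07, against 0.03 for all genes. RAD54L, a motor of strand exchange, and RAD52, which anneals single strands, gave 0.27 ± 0.09 and 0.20 ± 0.06 (adjusted p = 0.28 and 0.26). The Ku subunits XRCC6 and XRCC5 gave -0.16 ± 0.04 and -0.11 ± 0.04 (adjusted p = 0.20 and 0.32), and the kinase PRKDC gave 0.11 ± 0.04 (adjusted p = 0.34). Of break signalling genes, RAD17, KAT5, RNF8 and HUS1 gave 0.25 ± 0.08, 0.19 ± 0.06, 0.18 ± 0.07 and -0.27 ± 0.09 (adjusted p = 0.27 to 0.35). RAD52, PRKDC and RNF8 changed sign when coding transcripts alone were summed (-0.02, -0.05 and -0.15).

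The p53 targets (28 tested) and DNA replication genes (47 tested) also held none that passed, with medians of 0.04 and -0.03. At an unadjusted p under 0.05, 3 were higher in the first list, and 5 higher and 4 lower in the second. Over all genes tested, 8.2% were higher and 5.28% lower at that p. BBC3 and BAX, which promote apoptosis, gave 0.36 ± 0.10 and 0.20 ± 0.05 (adjusted p = 0.23 and 0.22). POLA2, RRM1 and SLBP gave -0.30 ± 0.09, -0.16 ± 0.05 and -0.16 ± 0.05 (adjusted p = 0.26 to 0.29). No member passed in the lists for G2 and mitosis (29 tested), the MAX network (10), the BCL2 family (14), replication-dependent histones (10), snoRNA hosts (17), nuclear long noncoding RNAs (4), ATF4 targets (25), heat shock proteins (20), NRF2 targets (22), Wnt feedback (15), TGF-beta and mesenchymal transition (16) or other cell types (2). Their medians lay between -0.0026 and 0.07. At an unadjusted p under 0.05, 18 of their 182 genes were higher and 14 lower, beside the same 8.2% and 5.28% of all genes.

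In the authors' deposited table, DESeq2 called 2841 of 74761 transcripts (3.8%) at an adjusted p under 0.05, 1413 of them higher in K56A (1.89%) and 1428 lower (1.91%). Of these 2841 calls in the authors' deposited table, 43.9% were of transcripts listed at 0 in both libraries of a group. The calls with at least 1 FPKM in all 4 libraries numbered 1092 in the authors' deposited table, and 87 of them were higher and 88 lower past a log2 fold change of 1.

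GADD45A-205, a coding form of a stress-induced growth arrest gene, held 1.74 and 1.42 FPKM in EV and 12.1 and 13.9 in K56A, with WT cells at 12.6 and 13.7 (3.01 in the authors' deposited table). The gene sum was 40.2 and 41.9 in EV and 60.4 and 54.8 in K56A (0.48 ± 0.06, limma adjusted p = 0.057). In the other direction, HGS-210 held 16.7 and 14.3 FPKM in EV and 2.82 and 3.78 in K56A, with WT cells at 9.26 and 5.02 (-2.27 in the authors' deposited table), with a gene value of -0.01. Both examples were picked after their values were seen. RSEM is named in the submitters' processing notes; how far the division of reads among overlapping forms sets these values was not tested.

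Processed transcripts, a class without a coding frame, took 3.75% and 3.80% of all FPKM in EV and 4.23% and 4.19% in K56A, where those of CDK9 alone held 1857 and 1749 FPKM. Transcripts with a retained intron took 9.77% and 9.68% of all FPKM in EV and 10.3% and 10.3% in K56A, and coding transcripts 79.6% and 79.6% in EV and 78.5% and 78.5% in K56A. With mitochondrial genes left out, the shares of retained intron forms were 13.5% and 13.3% in EV and 13.8% and 13.8% in K56A, and those of coding transcripts 73.6% and 73.8% in EV and 72.93% and 72.99% in K56A. For retained intron forms both K56A libraries lay above both EV libraries with or without those genes, but with 2 libraries a group the smallest two-sided exact permutation p is 0.333.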

How the data were processed

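RNA of the 2 EV and 2 K56A libraries was sequenced after TruSeq mRNA preparation, per the labels. The authors deposited FPKM per transcript, and per the file headers the DESeq2 log2 fold change, p-value and adjusted p-value of each, used only to describe the authors' calls. The submitters' processing notes name Trim Galore 0.6.6, STAR 2.7.1a, RSEM 1.3.3, DESeq2 1.32.0 and GRCh38 without roles. Annotation release and strand were not given in the sources used here. Without strand, a gene and an antisense partner that overlaps it share their reads. Another 4 columns of summary values were not used.

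FPKM were summed per gene. Genes that reached an FPKM of 1 in 2 or more of the 4 libraries entered limma 3.58.1 (in R 4.3.3) as log2(FPKM + 0.5), with an intensity trend, group means only, two-sided, adjusted by Benjamini-Hochberg at 0.05. On this scale changes of low genes are understated. For WT, the 6 knockdown libraries were fitted over the 69086 transcripts in both knockdown tables, brought to 1 scale by factors of 1.0007 and 1.0006 between the 2 copies of the EV libraries, leaving out genes with over 5% of FPKM elsewhere. The fit was tested on simulated data. Figures and tables used matplotlib 3.10.9, numpy 2.4.6 and pandas 2.3.3 under Python 3.11.15. Alternatives were other scalings, pseudocounts, filters, variance models, a replicate block, coding transcripts and leaving out each library.

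Named genes were CDK9 and DOT1L, the 15 largest rises and falls that passed with groups apart and mean FPKM of at least 2, up to 4 members of each described list by p, and all P-TEFb and immediate early genes. Some lists are given by counts, and some list members are not reported here. The members and the 37 lists were chosen with earlier results of these data known.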

Additional observations from a re-analysis of the deposited data

Results flagged for a closer look

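For 7 genes the change in K56A cells differed from that in WT cells by a test of the difference itself (limma, 6 libraries, adjusted p under 0.05). EV drops out of the size of that difference, which compares 2 K56A with 2 WT libraries. The EV libraries still enter the variance behind its p-values. For each gene the K56A and WT libraries did not overlap. On the log2 scale K56A minus WT was -0.67 for FOS, -0.38 for FOSB, -0.36 for CCN1, -0.25 for MT-ND5 and -0.23 for MT-ATP6. It was 0.56 for IFI6 and 0.32 for DOT1L. These are sums over transcripts, and the coding form CCN1-201 overlapped between WT (10.2 and 10.6 FPKM) and K56A (15.7 and 8.62). With any 1 K56A or WT library left out, FOS alone of the 7 passed, and with a replicate block FOS, MT-ATP6 and MT-ND5 did. The DOT1L level itself differs between K56A and WT, so the other 6 differences cannot be told apart from it. CDK9 RNA was also lower in both K56A libraries than in both WT libraries, and its part was not tested. The share of FPKM in mitochondrial genes was lower in K56A beside MT-ND5 and MT-ATP6, and its part in their values was not tested.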

How the results depend on the processing

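The number of genes that passed between K56A and EV (22: 5 higher, 17 lower) moved with the fit. It was 88 in the fit of 6 libraries, 130 with an FPKM of at least 5, 47 with median ratio scaling, 50 with mitochondrial genes left out, 5 with coding transcripts only, 5 with no filter, 1 without the intensity trend and 4 at an adjusted p of 0.01. With 1 library left out it was 40 to 85 (63 without EV replicate 1, 85 without EV replicate 2, 40 without either K56A library), where a lone library is assumed to vary like the other group. It was 18, 21 and 28 with pseudocounts of 0.1 and 1 and a robust variance. The share of calls that were lower was 77.3%, and 60.3%, 51.8% and 57.5% without EV replicate 1, EV replicate 2 and K56A replicate 2. The cause was not tested. Of the 22 genes, 19 to 22 passed with 1 library left out, and all 21 of those present passed in the fit of 6 libraries. Differences between replicate 1 and 2 were close to uncorrelated across groups. For EV with K56A r was -0.03 over 13782 genes. With WT it was 0.03 for EV and -0.03 for K56A over 12077 genes. Such values show no shared replicate shift but cannot tell whether samples were prepared in pairs. With a replicate block 41 genes passed (11 higher, 30 lower), the 22 among them. K56A against WT gave 7 genes, 9 with median ratio scaling, 3 with a replicate block (FOS, MT-ATP6, MT-ND5) and 1 to 2 with a library left out.

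All called genes kept their sign in every fit that gave them a value. Uncalled genes changed sign in some fits. With coding transcripts only, the values were CCN1 0.034, CCNL2 -0.081, RAD52 -0.021, LIG1 -0.022, PRKDC -0.047, TOP3A -0.028, RNF8 -0.15, ELL3 -0.25, KLF4 0.19, ATF3 0.025, CCNT2 -0.048, KLF5 -0.10, ATF2 -0.12, LARP7 -0.072, EGR3 0.27 and PPM1A 0.090. With median ratio scaling they were SRSF2 -0.0021, LARP7 -0.0082 and FOSL2 -0.0038, and with mitochondrial genes left out LARP7 -0.000145. With 1 library left out the log2 fold changes ranged over ATF3 -0.18 to 0.0093, KLF2 -0.32 to 0.013, CCNT2 -0.021 to 0.23, BTC -0.015 to 0.30, JUNB -0.088 to 0.015, PPM1G -0.073 to 0.0052, ZFP36L2 -0.023 to 0.093, MAFF -0.10 to 0.035, LARP7 -0.025 to 0.066, BTG1 -0.17 to 0.10, DDX21 -0.056 to 0.030, JDP2 -0.091 to 0.050, AFF4 -0.066 to 0.042, JUND -0.21 to 0.17, EGR3 -0.033 to 0.018, PPM1A -0.065 to 0.062 and MEPCE -0.024 to 0.023. The tables hold no counts, so no interval for low values could be given, and 16 of the 17 falls were of genes in the top quintile of FPKM.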
